A study of Mus musculus with 6 samples.

Results

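The stefin A genes of the mouse encode small cytosolic inhibitors of papain-like cysteine proteases, the cathepsins B, L, S and their relatives. A stefin folds around a wedge with a conserved hairpin loop that fills the active-site cleft of the protease and blocks it reversibly. Mice carry a cluster of closely related stefin A genes where most mammals carry fewer, and members of this cluster are known to be transcribed in neutrophils and in inflamed or thickened epidermis. The genes described here are Stfa1, Stfa2, Stfa2l1, Stfa3, BC100530, BC117090, Gm5416 and Gm5483. They were picked by symbol from the table of expression values, which held all 8 of them among its 23951 genes, and they were proposed because of how they differed between the genotypes compared below. Their values in that comparison are therefore given as a description, with no test.

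Whole skin of 3 JunB dep mice and 3 JunB +/+ control mice was profiled by RNA sequencing. In JunB dep mice the AP-1 transcription factor subunit JunB is deleted in cells that express keratin 5, the basal keratinocytes and their descendants, with a Cre recombinase driven by the keratin 5 promoter acting on a floxed Junb allele. All mice were on the C57Bl/6 background and 6 to 7 months old by the sample labels, the study describes the JunB dep skin as lesional, and the design text of the series calls the mice littermates. Keratin 5 marks only part of the tissue, and the dermis, fat, muscle and immune cells in each sample are not targeted. The replicate numbers 0, 1 and 2 only name the mice within a genotype.

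Values are FPKM, fragments per kilobase of transcript scaled to the mapped fragments of the library, so they can be set side by side between genes. The total number of reads is not known. Among genes below 0.15 FPKM, the commonest ratio to control replicate 0 put the scaling totals of the libraries at 0.955 to 1.14 times its own, and the FPKM sums were 481078 to 630363 per library. Junb itself was at 59.3, 72.4 and 56.9 FPKM in the controls. JunB dep replicates 1 and 2 had 42.8 and 28.0 FPKM of it, and the library labelled JunB dep replicate 0 had 129.6 FPKM. The last value was the highest of all libraries. Cells that are not targeted can add to Junb in whole skin, so this value does not decide whether the label is right. That library also stood apart in many other genes, so results for the members, and some for other genes, are given with and without it. In whole tissue, a change in the number of cells of a type and a change in RNA per cell cannot be told apart.

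The coding sequences show how alike the members are and where their inhibitory loops differ. The stretches of 30 bases below, read from the GENCODE vM1 coding transcripts, run 5′ to 3′ and have in capitals the 15 bases that encode the QxVxG loop of the cystatin superfamily.
Stfa1: gagtataaaactCAAGTCGTCGCTGGAgaa
BC100530: gagtataaaactCAAGCCGTCGCTGGAgaa
Stfa3: gagtataaatctCAAGTCGTTGCTGGAcaa
Gm5483: gagtataaatctCAAGTCGTCGCTGGAcaa
Gm5416: gagtataaatctCAATTCGTCGCTGGAcga
Stfa2: gagtataaagttCAAGTCGTCCAAGGActa
Stfa2l1: gagtataaagttCAAGTCGTCCAAGGActa

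The stretches of Stfa2 and Stfa2l1 were identical. Against Stfa3, the stretch of Gm5483 differed at 1 base, those of Stfa1 and Gm5416 at 3, that of BC100530 at 4 and those of Stfa2 and Stfa2l1 at 7. BC117090 was not matched in this annotation, so 7 of the 8 members have a sequence and a position here.

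Over whole coding sequences, the 21 pairs of members shared 78.0% to 98.1% of aligned bases, with a median of 82.1%. The closest pairs were Stfa2 with Stfa2l1, which differed at 6 of 312 aligned bases, and Stfa1 with BC100530, which differed at 6 of 294. Likeness at this level bears on the values, because the authors' alignment allowed mismatches and multiple hits per read. Of the 50-base windows of the Stfa1 transcript, 98.7% occurred with at most 2 mismatches in another transcript of the cluster, and 67.5% of those of BC100530 occurred in Stfa1. For Stfa2 and Stfa2l1 the share was 80.8% each, and for Gm5483 it was 65.2%, all shared with its neighbour 2010005H15Rik. Stfa3 and Gm5416 were distinct, with 6.61% and 3.67% of windows shared. Reads of Stfa1 and BC100530 can thus be split between them, as can those of Stfa2 and Stfa2l1, and the separate levels within each pair are uncertain.

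**Figure D1:**
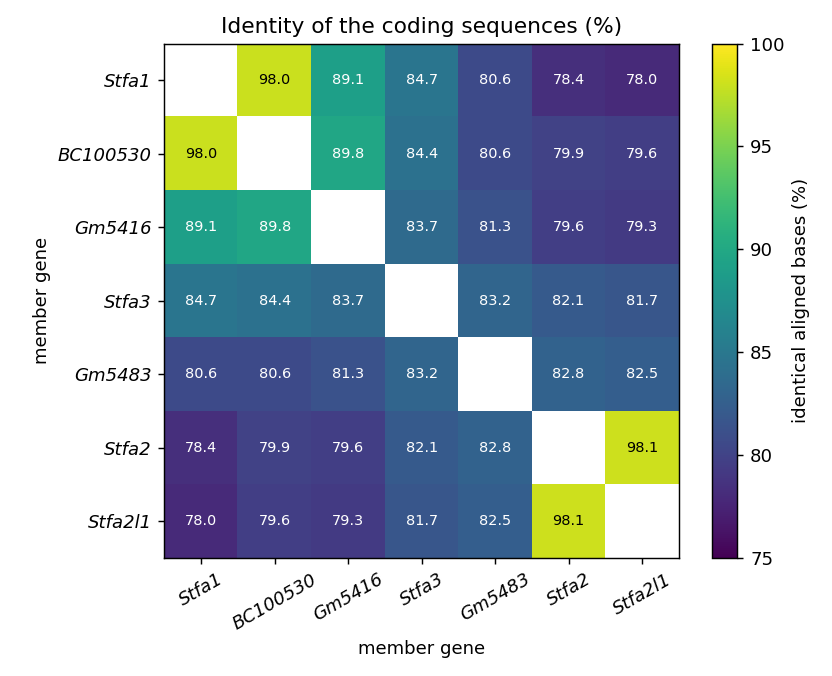
Identity of the coding sequences of the 7 members found in the annotation, as the percent of aligned bases that are identical, with one cell for each pair of genes. Stfa1 with BC100530 (98.0%) and Stfa2 with Stfa2l1 (98.1%) stand out from the other pairs, and Gm5416 is nearest to BC100530 (89.8%) and Stfa1 (89.1%).

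The 7 matched members lay within 298.6 kb of chromosome 16, from 36156897 to 36455478 on the mm9 build, each annotated with 3 exons. Stfa2l1 (36156897 to 36162034), Gm5483 (36184298 to 36188197), Gm5416 (36210489 to 36217874) and Stfa1 (36277213 to 36285457) were on the plus strand. BC100530 (36359468 to 36367834), Stfa2 (36404037 to 36421006) and Stfa3 (36450623 to 36455478) were on the minus strand. The same span held 3 other coding genes of the family, 2010005H15Rik, Gm4758 and Gm1975. Of these, 1 had a row under its symbol, and expression of the others was not analysed here.

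All 7 matched members held the 8 bases of CTTTAAAA exactly once within 300 bases of their annotated start on their own strand, in nearly the same surroundings. The windows of 30 bases below are from mm9 and show the last 7 of these bases in capitals, and they are printed because all 7 members share this sequence near their starts.
Stfa3, chr16:36455492-36455521, minus strand: ttacagataaccTTTAAAAccccgagtctc
BC100530, chr16:36367648-36367677, minus strand: tttacagataccTTTAAAAccccgagtctc
Stfa1, chr16:36277192-36277221, plus strand: ctttcggataccTTTAAAAccctgagtctc
Gm5416, chr16:36210400-36210429, plus strand: tttacagataccTTTAAAAccccgagtctc
Stfa2, chr16:36421022-36421051, minus strand: tttacagatatcTTTAAAAtcctgagtctc
Stfa2l1, chr16:36156852-36156881, plus strand: tttacagaaaccTTTAAAAccctgagtctc
Gm5483, chr16:36184257-36184286, plus strand: tttacagataccTTTAAAAccctgactctt

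The 30-base windows of BC100530 and Gm5416 were identical. The run of CTTTAAAA began at position -34 from the annotated start in Stfa2 and Stfa2l1, -32 in Stfa3, -30 in Gm5483, -10 in Stfa1 and -78 in Gm5416. In BC100530 it began at position 169, inside the annotated first exon and before the coding sequence. The element was picked after these sequences had been seen. It is not particular to the members. CTTTAAAA also occurred exactly once near the starts of 2010005H15Rik, Gm4758, Gm1975 and Csta1, a stefin A gene just outside the cluster. TTTAAAA on either strand occurred in the 300 bases upstream of 6 of 7 members and of 9.73% of 22373 genes. The letters TGANTCA, the AP-1 site to which JunB-containing dimers bind, searched on both strands, occurred in that window in 0 of 7 members and in 6.91% of genes. These matches describe the windows and say nothing on which factors act there.

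Stfa3, BC100530 and Stfa1 were higher in every JunB dep library than in every control. In control replicates 0, 1 and 2, Stfa3 measured 3.63, 2.57 and 2.57 FPKM. The library labelled JunB dep replicate 0 had 2599 FPKM of it, and JunB dep replicates 1 and 2 had 64.5 and 70.8 FPKM. The lowest JunB dep library was 17.8 times the highest control, and JunB dep replicates 1 and 2 lay close together.

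BC100530 was at 0.626, 1.42 and 1.44 FPKM in the controls and at 2729.9, 17.6 and 23.4 FPKM in JunB dep replicates 0, 1 and 2. Stfa1 was at 0.661, 0.634 and 0.354 FPKM in the controls and at 749.8, 6.27 and 12.6 FPKM in the same JunB dep order. For both, the groups did not overlap, and the lowest JunB dep library exceeded the highest control 12.3 times in BC100530 and 9.49 times in Stfa1. On the scale of log2(FPKM + 0.5), the mean difference between JunB dep and controls was 6.08 ± 1.76 (SE, n = 3 per group) in Stfa3, 6.04 ± 2.36 in BC100530 and 5.28 ± 2.13 in Stfa1. These errors are wide because the JunB dep libraries differed among themselves far more than the controls did. Without the library labelled JunB dep replicate 0 the differences were 4.33, 3.69 and 3.18 in the same gene order.

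Against the mean of the controls, JunB dep replicates 1 and 2 were 22.1 and 24.2 times higher in Stfa3, 15.2 and 20.1 times in BC100530 and 11.4 and 22.9 times in Stfa1. In the library labelled JunB dep replicate 0 the corresponding ratios were 889, 2349.9 and 1364. By rank among all genes of a library, Stfa3 stood at 10558 to 11596 in the controls and at 1168 and 1049 in JunB dep replicates 1 and 2. It was the 18th most abundant gene of the library labelled JunB dep replicate 0, where BC100530 was the 17th.

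**Figure D2:**
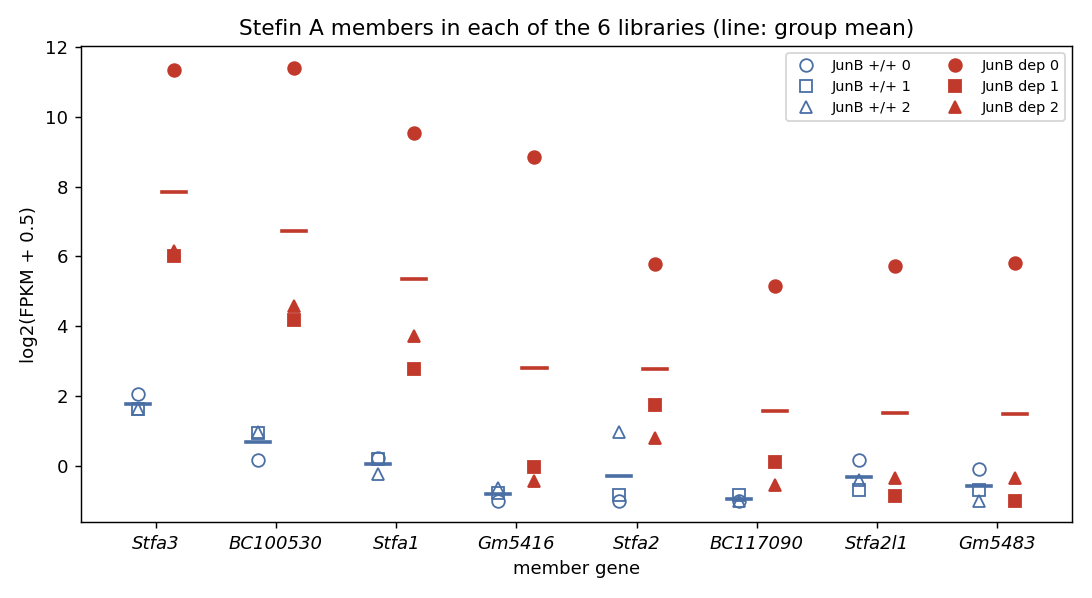
log2(FPKM + 0.5) of each member gene in the 6 libraries, with open blue symbols for JunB +/+, filled red symbols for JunB dep, the symbol shape for the replicate number and a line for the group mean. The library labelled JunB dep replicate 0 is the highest point of every gene, and for Stfa3, BC100530 and Stfa1 the other JunB dep libraries also lie well above the controls.

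Gm5416 and BC117090 did not overlap between the groups either, but at low levels in all libraries except 1. Gm5416 was listed at 0, 0.0819 and 0.144 FPKM in the controls and was at 464, 0.480 and 0.244 FPKM in JunB dep replicates 0, 1 and 2. Its lowest JunB dep value was 1.69 times its highest control value. BC117090 was listed at 0, 0.0623 and 0 FPKM in the controls and was at 35.1, 0.573 and 0.185 FPKM in JunB dep replicates 0, 1 and 2. Outside the library labelled JunB dep replicate 0, neither gene reached 1 FPKM.

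Stfa2, Stfa2l1 and Gm5483 overlapped between the groups. Stfa2 was listed at 0, 0.0570 and 1.45 FPKM in the controls and was at 55.1, 2.86 and 1.24 FPKM in the JunB dep libraries, so that control replicate 2 exceeded JunB dep replicate 2. Stfa2l1 was at 0.612, 0.116 and 0.255 FPKM in the controls and at 52.3, 0.0487 and 0.288 FPKM in JunB dep. Gm5483 was listed at 0.446, 0.117 and 0 FPKM in the controls and at 55.6, 0 and 0.289 FPKM in JunB dep. In these 3 genes the library labelled JunB dep replicate 0 was the one library far from the rest.

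Without that library, the difference in log2(FPKM + 0.5) was 1.57 in Stfa2, 0.72 in BC117090, 0.58 in Gm5416, -0.078 in Gm5483 and -0.29 in Stfa2l1. Stfa2 and Stfa2l1 thus had different values in JunB dep replicate 1 despite the near-identity of their transcripts. Over the 8 members the median difference was 3.34 with all libraries, against 0.03 over the 17021 genes whose mean was 0.1 FPKM or more, and it was 1.14 without the library labelled JunB dep replicate 0.

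**Figure D3:**
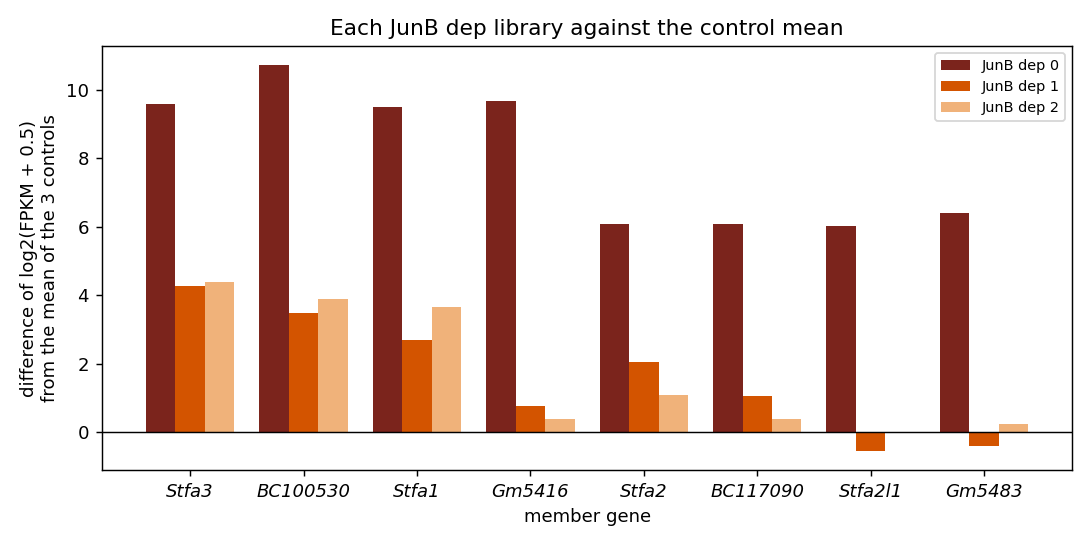
Difference of log2(FPKM + 0.5) between each JunB dep library and the mean of the 3 controls, with 3 bars per member gene, one for each JunB dep library. The bars of JunB dep replicates 1 and 2 reach 2.70 to 4.39 in Stfa3, BC100530 and Stfa1, are lower in the other members, and lie at or below 0.25 in Gm5483 and Stfa2l1.

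The summed level of the 8 members was 5.98, 5.06 and 6.21 FPKM in the controls, 92.4 and 109 FPKM in JunB dep replicates 1 and 2, and 6741 FPKM in the library labelled JunB dep replicate 0, where it made up 1.07% of all FPKM. Stfa1, Stfa3 and BC100530 made up 70.2% to 91.4% of the sum in the controls and 90.2% to 97.9% in JunB dep. The ratio of Stfa3 to Stfa1 was 4.06 to 7.25 in the controls and 3.47 to 10.3 in JunB dep, and these ranges overlapped.

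Counts over the members are given beside the same counts over all 17021 genes tested, and since this contrast chose the members nothing is read from them. All 3 JunB dep libraries were above all 3 controls in 5 of 8 members and in 5.62% of genes. Every JunB dep library was at least 4 times every control in 3 of 8 members and in 0.0823% of genes, which is 14 genes. Apart from Stfa1, Stfa3 and BC100530, the highest value that any of these 14 genes had in its lowest JunB dep library was 0.612 FPKM, in Gsdmc. The library labelled JunB dep replicate 0 was the highest of the 6 in 8 of 8 members and in 29.7% of genes.

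The sample names carry numbers in the 230s and the 270s, and what these numbers mark is not given. Within the 230s, the library labelled JunB dep replicate 0 was 838 times the mean of control replicates 0 and 1 in Stfa3, 2668 times in BC100530 and 1158 times in Stfa1. Within the 270s, the mean of JunB dep replicates 1 and 2 was 26.4 times control replicate 2 in Stfa3, 14.3 times in BC100530 and 26.6 times in Stfa1. The direction was the same in both number series, and Stfa2l1 was lower in the 270s, at 0.660 times the control. Xist, the transcript of the inactive X chromosome, was looked at after its values were known. Control replicate 1 and JunB dep replicates 1 and 2 had 27.6 to 34.2 FPKM of it, and no other library exceeded 0.0274 FPKM. With 1 control among the libraries with Xist, and only the library labelled JunB dep replicate 0 on the JunB dep side of the others, the part of sex in the members' values was not tested.

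No gene next to the cluster passed limma, in which 1.38% of all genes tested, all of them lower in JunB dep, had a Benjamini-Hochberg adjusted p below 0.05. Without the library labelled JunB dep replicate 0, limma called 135 genes, 10 of them higher. Of the 8 nearest genes with a row on each side, 15 of 16 could be tested, and 0 passed limma at an adjusted p of 0.05, with 1 at an unadjusted p under 0.05. That gene was Casr, the calcium-sensing receptor, which was at 1.20, 0.547 and 1.18 FPKM in the controls and at 0.143, 0.044 and 0.137 FPKM in JunB dep, with a limma adjusted p of 0.107. Csta1, a stefin A gene just outside the cluster whose human counterpart is a component of the cornified envelope, was at 34.9, 41.3 and 25.5 FPKM in the controls. The library labelled JunB dep replicate 0 had 198 FPKM of it and JunB dep replicates 1 and 2 had 36.0 and 53.4 FPKM, so the groups overlapped. The family gene 2010005H15Rik, which lies between Gm5416 and Stfa1, was at 0.305, 0.593 and 0.400 FPKM in the controls and at 8.59, 0.153 and 0.452 FPKM in JunB dep. Fam162a measured 73.4 to 93.4 FPKM in the controls and 557, 87.1 and 92.1 FPKM in JunB dep replicates 0, 1 and 2.

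**Figure D4:**
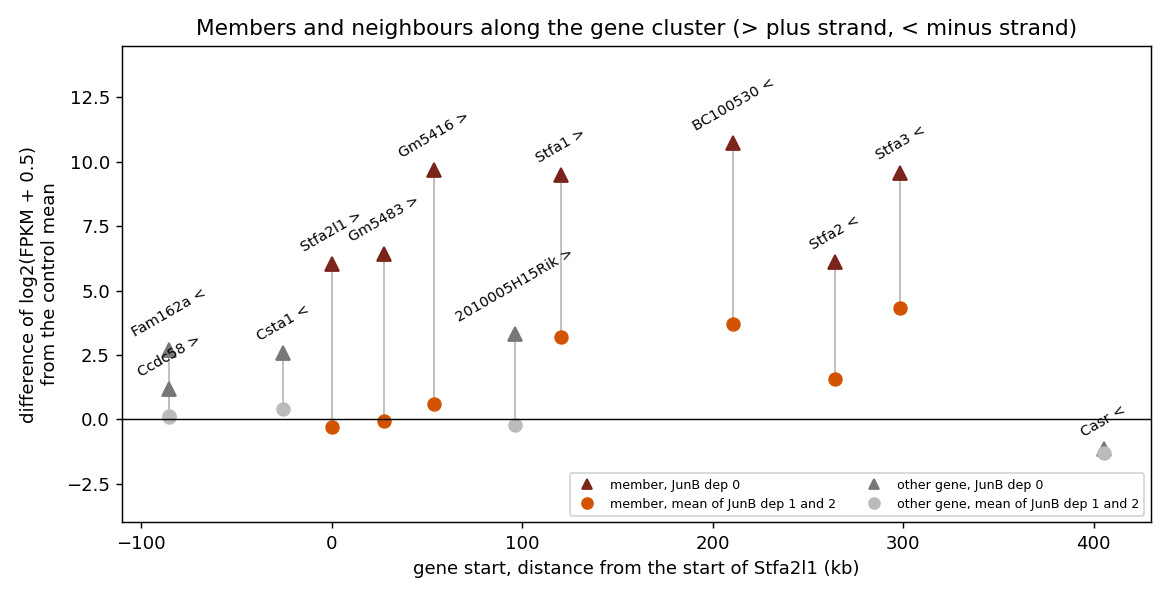
Members (coloured) and the nearest genes with a row (grey) by the distance of their start from the start of Stfa2l1 in kb, against the difference of log2(FPKM + 0.5) from the control mean. Triangles are the library labelled JunB dep replicate 0 and circles are the mean of JunB dep replicates 1 and 2, and the circles of Stfa1, BC100530 and Stfa3 at 3.18, 3.69 and 4.33 are above those of the other genes.

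No gene of the list of other cystatins and stefins was called. Of this list, 20 genes had a row, 4 of them listed at 0 in all libraries, and 14 could be tested. In limma 0 of these 14 passed at an adjusted p of 0.05, beside 1.38% of all genes tested, and 0 had an unadjusted p under 0.05. With so small a share of calls, 0 in a short list does not show that its genes were unchanged. Their median difference was -0.38 on the log2 scale, with 5 higher and 9 lower in mean. Cst3, the secreted cystatin C, was at 912, 1299 and 632 FPKM in the controls and at 519, 447 and 812 FPKM in JunB dep, a difference of -0.66 ± 0.38 (SE, limma adjusted p = 0.722). Cstb, the ubiquitous stefin B, was at 163, 172 and 134 FPKM in the controls and at 722, 199 and 169 FPKM in JunB dep, a difference of 0.89 ± 0.56 (limma adjusted p = 0.722). In Cst6, the epidermal cystatin M/E, the difference was 0.07 ± 0.31 (limma adjusted p = 0.948). In 0 of the 14 genes were JunB dep replicates 1 and 2 both above all controls, beside 11.1% of all genes tested.

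The liver cystatins Ahsg and Fetub, the genes of fetuin-A and fetuin-B, varied within the controls. Ahsg was at 166 FPKM in control replicate 0 and at most at 0.0959 FPKM in the other controls, and at 1.54 FPKM at most in JunB dep. Fetub was at 17.7, 0.929 and 0.605 FPKM in the controls and at 76.7, 0.899 and 2.49 FPKM in JunB dep.

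No gene of the list of cysteine proteases was called. The list holds the papain-like cathepsins and Lgmn, the gene of legumain, which belongs to another protease family. All 11 genes were tested, with a median difference of -0.03. In limma 0 passed at an adjusted p of 0.05, beside 1.38% of all genes tested, and 0 had an unadjusted p under 0.05. For so short a list this does not show that the genes were unchanged. Ctsb and Ctsl, the lysosomal cathepsins B and L, were the most abundant. Ctsb was at 194, 172 and 190 FPKM in the controls and at 240.2, 169 and 263 FPKM in JunB dep, a difference of 0.25 ± 0.22 (limma adjusted p = 0.724). Ctsl was at 182, 179.8 and 199 FPKM in the controls and at 266, 149.5 and 200.2 FPKM in JunB dep, a difference of 0.10 ± 0.24 (limma adjusted p = 0.898).

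Ctss, the cathepsin of antigen-presenting cells, was at 62.1, 39.6 and 44.9 FPKM in the controls and at 137, 12.02 and 37.9 FPKM in JunB dep. Ctsh, Ctsz and Ctsk, the cathepsins H, Z and K, differed by -0.03 ± 0.32, 0.16 ± 0.20 and -0.83 ± 0.67. Over JunB dep replicates 1 and 2 alone the differences were -0.34, 0.11 and -1.42 in the same gene order. All 6 of these proteases overlapped between the groups. In JunB dep replicates 1 and 2 the level of Stfa3 was 64.5 and 70.8 FPKM, beside 169 and 263 FPKM of Ctsb, whereas in the controls Stfa3 did not exceed 3.63 FPKM beside 172 to 194 FPKM of Ctsb.

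Levels of cell type markers are given beside the members, and their part in the members' values was not tested. Of the neutrophil markers, 19 of 20 had a row and could be tested. Their summed level was 636, 98.8 and 248 FPKM in control replicates 0, 1 and 2 and 842, 45.2 and 176 FPKM in JunB dep replicates 0, 1 and 2. No neutrophil marker was above all controls in both JunB dep replicates 1 and 2. This pattern was seen in 11.1% of all genes tested and in 5 of 8 members, which were chosen by this contrast. Control replicate 0 held Ngp at 195 FPKM and Camp at 113 FPKM, the genes of granule proteins of maturing neutrophils. Its summed stefin level was 5.98 FPKM, and it also held the liver gene Ahsg at 166 FPKM. Retnlg, a marker of mature neutrophils, measured 18.6, 0.792 and 0.139 FPKM in the controls and 418, 0.133 and 1.34 FPKM in JunB dep replicates 0, 1 and 2. Ltf and Il1r2 carried most of the summed level outside control replicate 0 and the library labelled JunB dep replicate 0. Without them, a choice made after the values were seen, the other 17 markers summed to 490.2, 24.8 and 10.8 FPKM in the controls and to 779.8, 9.91 and 20.5 FPKM in JunB dep replicates 0, 1 and 2. The library labelled JunB dep replicate 0 had the highest median of the list, 2.56 above the control mean on the log2 scale, and 11 of the 19 markers were highest there.

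S100a8, the gene of a calprotectin subunit, measured 744, 13.9 and 8.15 FPKM in the controls and 24456, 13.0 and 65.6 FPKM in JunB dep replicates 0, 1 and 2. Lcn2, the gene of lipocalin 2, measured 222, 2.82 and 14.4 FPKM in the controls and 1044, 4.06 and 69.7 FPKM in JunB dep. Both were highest in the library labelled JunB dep replicate 0, as the stefins were, and next highest in control replicate 0, where the stefins were low. The part of neutrophils in the stefin levels was not tested. The median of the macrophage and monocyte list in JunB dep replicates 0, 1 and 2 was 0.87, -1.46 and -0.23 relative to the control mean on the log2 scale. That of the T cell list was -0.46, -0.58 and 0.05. Of these lists, 0 genes passed limma at an adjusted p of 0.05, as in the neutrophil, calprotectin and lipocalin, mucosal, epidermal and adipocyte lists.

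Genes of activated keratinocytes include small proline-rich proteins, defensins and epidermal cytokines. Of the 16 tested, 7 were above all controls in both JunB dep replicates 1 and 2, beside 11.1% of all genes, and 0 passed limma at an adjusted p of 0.05. Il1f6, the gene of the epidermal cytokine IL-36 alpha, named here after its values were seen, was at 1.62, 0.464 and 0.910 FPKM in the controls and at 134, 5.43 and 10.7 FPKM in JunB dep, with a difference of 3.86 ± 1.16 (limma adjusted p = 0.377). Sprr2d, a cornified envelope precursor, was at 0.507, 0.601 and 0.186 FPKM in the controls and at 1363, 1.30 and 4.35 FPKM in JunB dep. Defb14, the gene of an antimicrobial beta-defensin, was at 4.81, 6.21 and 4.81 FPKM in the controls and at 468, 7.88 and 9.19 FPKM in JunB dep. The median of the list was 7.06, 0.35 and 0.17 above the control mean on the log2 scale in JunB dep replicates 0, 1 and 2, beside 7.95, 1.54 and 0.75 for the 8 members. Sprr1b and Sprr2h overlapped between the groups. Sprr1b, a further cornified envelope precursor, measured 3.20, 1.03 and 6.06 FPKM in the controls and 2557, 3.42 and 1.72 FPKM in JunB dep. It had the highest mean of the list only through the library labelled JunB dep replicate 0, where Krt6a was listed at 0. In every other library Krt6a, named after its values were seen, was higher, at 33.0 to 112 FPKM. Sprr2h, of the same family as Sprr1b, measured 2.62, 0.710 and 4.53 FPKM in the controls and 475, 1.78 and 1.41 FPKM in JunB dep. Within the list, Il1f6 was 2.06 and 2.97 above the control mean in JunB dep replicates 1 and 2, and Serpinb3a, a serpin gene, was 1.15 and 2.44 above it.

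Markers of mucosal epithelium, such as that of the mouth and oesophagus, had a median of 6.65 in the library labelled JunB dep replicate 0. The median was -0.06 and -0.15 in JunB dep replicates 1 and 2. Of the 7 mucosal genes tested, 5 were highest in the library labelled JunB dep replicate 0, with Krt13 at 1989.6 FPKM. Crnn was higher elsewhere, at 73.9 FPKM in control replicate 2 and 80.4 FPKM in JunB dep replicate 1. Krt84, named after its values were seen, was highest in control replicate 2, at 10.4 FPKM, and listed at 0 in JunB dep replicate 0. The epidermal keratinocyte list had medians of -0.30, -0.40 and -0.09 in the JunB dep libraries. Its Krt5 was at 1588 to 2538 FPKM in the controls and 1615 to 3725 FPKM in JunB dep. Single genes moved both ways in the library labelled JunB dep replicate 0, with Krt15 at 0.0462 times and Krt1 at 6.26 times the control mean. Of the 12 genes tested, 2 were below all controls in every JunB dep library and 0 above. In the library labelled JunB dep replicate 0 Krt14, S100a9 and, named after their values were seen, Krt6a and Krt16 were listed at 0, which can be a failed estimate. Skeletal muscle genes were lower in JunB dep: 10 of 10 did not overlap, beside 14.8% of all genes tested, and 8 passed limma at an adjusted p of 0.05, beside 1.38%, with a median of -3.16. No gene of the table, these included, was called without JunB dep replicate 1, without any 1 control, or when replicate numbers or the 230s and 270s entered the fit as a block. For adipocyte genes the median was -6.74 in the library labelled JunB dep replicate 0, -0.40 in JunB dep replicate 1 and 1.59 in JunB dep replicate 2. The summed stefin levels of JunB dep replicates 1 and 2, at 92.4 and 109 FPKM, thus stood beside different adipocyte levels. Single members were less close, such as Stfa1 at 6.27 and 12.6 FPKM.

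**Figure D5:**
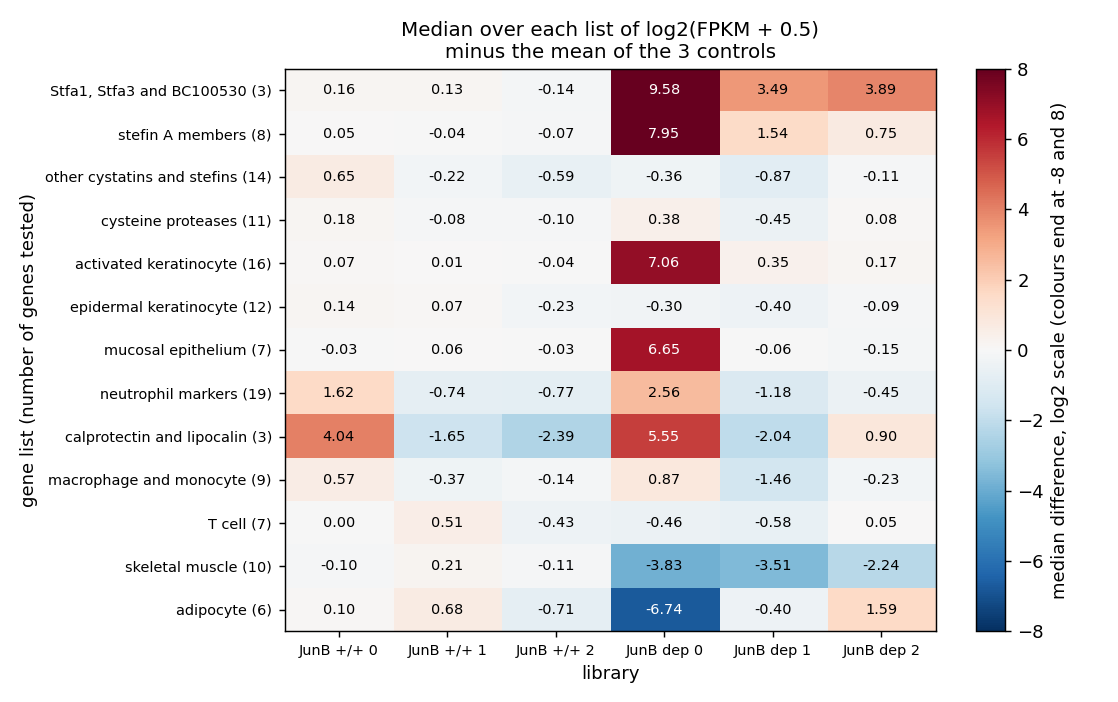
Median over the genes of each list of log2(FPKM + 0.5) minus the mean of the 3 controls, for each of the 6 libraries, with the number of genes tested in parentheses. In JunB dep replicates 0, 1 and 2 the row for Stfa1, Stfa3 and BC100530 is at 9.58, 3.49 and 3.89, the row for all 8 members at 7.95, 1.54 and 0.75, and the neutrophil row at 2.56, -1.18 and -0.45, with 1.62 in control replicate 0.

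The 10 genes whose pattern over the 6 libraries was nearest to the median member were sought among the 13734 other genes whose mean reached 1 FPKM, by the root mean square distance of centred log2(FPKM + 0.5). They were Gsdmc, a gasdermin, at a distance of 0.22, then Klk14 and Klk13, kallikrein serine proteases, at 0.41 and 0.46, Lce3f, a late cornified envelope gene, at 0.48, Spink12, a serine protease inhibitor gene, at 0.56, Sprr2f at 0.59, Cxcl3, a neutrophil chemokine, at 0.59, Nppb, the natriuretic peptide B gene, at 0.59, Lce3e at 0.62 and Defb14 at 0.65. The members lay 0.66 to 1.33 from the same median. Each of the 10 had its highest value in the library labelled JunB dep replicate 0. This follows from the search, since the median of the members was 7.95 above the control mean there. Gsdmc was at 0.0483, 0.0809 and 0.0621 FPKM in the controls and at 133, 1.14 and 0.612 FPKM in JunB dep, so it too did not overlap. Lce3f, Sprr2f, Cxcl3, Lce3e and Defb14 did not overlap either, while Klk14, Klk13, Spink12 and Nppb overlapped.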

How the data were processed

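Poly(A) RNA of whole skin from 3 JunB dep and 3 JunB +/+ mice was sequenced as stranded libraries. The authors checked reads with FastQC, aligned them to mm9 with TopHat 2.0.10, Bowtie 1.0.0 and SAMtools 0.1.19 through nextpresso, allowing mismatches and multiple hits, and deposited FPKM values per gene and mouse with an iGenomes annotation. Their processing notes also name Cufflinks, with no role given. Their own test used DESeq2 on counts, which were not analysed here.

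FPKM values were used as deposited. log2(FPKM + 0.5) was compared with limma 3.58.1 in R 4.3.3 (intensity trend, two-sided, Benjamini-Hochberg, threshold 0.05) over the 17021 genes whose mean was 0.1 FPKM or more, in all 6 libraries and no covariates. The mice are called littermates, but no label ties a mouse to a litter. Errors of the members are plain SE over 3 mice per genotype, those of other genes are the moderated SE of limma, and an exact two-sided permutation test of 3 against 3 cannot give a p below 0.1. Positions and sequences are from GENCODE vM1 and the NCBIM37 (mm9) genome, and coding sequences were aligned with Biopython 1.88. In simulated data for this comparison on 17021 genes, 50% of 200 genes changed by 2 on the log2 scale were recovered, with 4 false calls. Of 200 genes changed by 3, 81% were recovered, with 9 false calls. The fit to the data itself called 0 genes higher in JunB dep, and the members differed far more among the JunB dep libraries than among the controls. These shares are therefore not the power for rises like those of the members.

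The members and gene lists were chosen with earlier results of these data known. Named genes were all 8 members, Junb, called genes or otherwise the 6 most abundant of the cystatin and protease lists, the 5 most abundant of each marker list, the 8 nearest genes on each side and the 10 most alike in pattern; not all are printed, and others are said to be outside this rule. The alternatives were other pseudocounts, filters, scalings and limma options, blocks on replicate number and name series, and each library left out.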

Additional observations from a re-analysis of the deposited data

How the results depend on the processing

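The median difference of the members was 1.14 to 4.64 with each library left out in turn and positive under every alternative run. Of 96 differences of single members under alternatives, 94 were positive. The alternatives reuse the libraries whose contrast chose the members, so these values are a description and not an independent check. With each library left out in turn, the difference was -0.29 to 3.01 in Stfa2l1 and -0.078 to 3.33 in Gm5483, against 1.82 and 2.08 with all libraries, and it was below 0 only without JunB dep replicate 0. The number of members whose groups did not overlap was 5 to 6, and that of members at least 4 times every control in every JunB dep library 3 to 4, with each library left out. The same rules were met by 18.1% to 39.9% and by 0.106% to 0.770% of all genes tested, against 14.8% and 0.0823% with all libraries. Both counts were chosen after seeing the data. Median ratio scaling and quantile normalization left them at 5 and 3, and limits of 2 and 8 times in place of 4 gave 4 and 3. No cysteine protease or other cystatin was called under any alternative run, which was fixed in advance wherever 0 genes of the table were called.

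The count of all genes called was 235, and 23 with no filter on low values. It was 0 to 254 with each library left out, 135 without JunB dep replicate 0, and 0 without JunB dep replicate 1 or any 1 of the controls. It was 0 with a replicate block and 0 with a block on the name series. The replicate numbers did not pair the mice: the correlations of same-numbered deviations were 0.12, -0.23 and -0.43, so the block is a count of calls only. The cause of these changes was not tested. Read totals are unknown, so values of members below about 1 FPKM carry an unknown counting error.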
